A study of Homo sapiens with 15 samples.

Results

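Ventral neurons were compared with the progenitor cultures labelled RASS, a step of neural induction, in 4 of the 15 RNA-seq libraries of a series on human embryonic stem cells and their derivatives. The 4 libraries were chosen by their labels alone and make up 2 of the series' 9 groups. The series followed self-renewing neuromesodermal progenitors (srNMPs) into neurons and skeletal muscle, and RASS and RABC are its induction groups beside ventral and dorsal neurons.

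Each group held 1 culture of H1 and 1 of HUES9, which are established human embryonic stem cell lines, both labelled wild type. All 4 cultures are labelled as under neural induction: the RASS cultures as neuron progenitors at 7 days, and the others as neurons, with no day given. The meaning of RASS, the agents added and the progenitors from which the ventral neurons were grown are not given in the labels. A replicate is thus a cell line, and the labels say nothing more on how far the cultures were independent. The p-values measure the spread between libraries of a group. That spread is pooled over the 6 groups of the series with 2 libraries, not taken from the compared groups alone. In bulk RNA, fewer cells of a type and less RNA per cell cannot be told apart.

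In the ventral part of the developing spinal cord, SHH protein from the notochord and floor plate acts through the receptor PTCH1 and the GLI transcription factors to pattern progenitor domains. Cells of the OLIG2 domain leave the cell cycle and become motor neurons, which carry the homeodomain factors MNX1, ISL1 and LHX3 and use acetylcholine as their transmitter. As neurons mature they build axons, ion channels, vesicle release machinery and receptors.

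The line labels of the RASS libraries went against those of the other groups. Over 14129 genes, the HUES9 minus H1 difference correlated between groups at r of 0.07 to 0.38 in the 10 pairs of groups without RASS and at -0.53 to -0.17 in the 5 pairs with RASS. HOXD9, a posterior HOX gene, stood at 28.3 FPKM in the library labelled H1 RASS and was listed at 0 in that labelled HUES9 RASS. In ventral neurons the order was the opposite, with 0.109 FPKM in H1 and 48.1 in HUES9. The comparison below therefore uses no line term, and the library names are those of the labels. Genes are not independent replicates, so these correlations are descriptions.

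FPKM is fragments per kilobase of transcript, scaled to the library. Summed FPKM of the 4 libraries ranged from 290399 to 321889, and 11165 to 12102 genes reached 1 FPKM. Judged from the steps between the lowest FPKM values, depth relative to the H1 RASS library was 0.945 to 0.970 in the other 3. The RASS libraries ranked their genes alike (Spearman's rho 0.968, across genes), the ventral neuron libraries less so (0.922), and libraries of different groups least (0.782 to 0.818).

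Of 12812 genes tested, 3648 differed between ventral neurons and RASS at an adjusted p under 0.05 (limma on log2(FPKM + 1), Benjamini-Hochberg), which is 28.5% of the genes tested. Higher in ventral neurons were 2054 genes (16%), and 1594 (12.4%) were lower. The median change of all tested genes was 0.07 (log2). After quantile normalization the split was 1800 higher and 2149 lower. Changes are differences of mean log2(FPKM + 1), which understate the change of weakly expressed genes.

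Most motor neuron genes were higher in ventral neurons. All 25 listed genes were tested, 13 rose, none fell and 12 did not pass, with a median change of 1.37, beside 16% of all genes called higher. A gene that reached 1 FPKM in only 1 group had to differ to be tested. The lists were also written with earlier results of these data known, so this count and those below describe the lists. With no filter or with a pseudocount of 0.1, 9 of the 25 were called higher. The genes of acetylcholine use SLC18A3, ACHE, SLC5A7 and CHAT were among the 5 largest rises of the list, which UTS2 led. SLC18A3, which loads acetylcholine into vesicles, was at 0.423 and 0.358 FPKM in H1 and HUES9 RASS and at 20.1 and 25.1 in H1 and HUES9 ventral neurons. It rose 57.9-fold, from 0.391 ± 0.0465 (SD, n = 2) to 22.6 ± 3.57 (4.08 ± 0.26 SE on the log2 scale, adjusted p = 8.81e-05). CHAT, the enzyme that makes acetylcholine, was at 0.0966 and 0.048 FPKM in RASS and at 8.04 and 7.63 in ventral neurons (change 3.04 ± 0.24, adjusted p = 0.0002). SLC18A3 lies inside the CHAT locus, so fragments of shared exons could be counted to either gene. Both stood apart between the groups by far more than their spread within them.

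The other cholinergic genes varied more between the lines. SLC5A7, the choline transporter, was at 1.27 and 0.0194 FPKM in RASS and at 29.7 and 7.51 in ventral neurons, a rise of 3.41 ± 0.55. ACHE, which degrades acetylcholine, went from 0.329 and 0.313 FPKM to 25.9 and 8.28, a rise of 3.58 ± 0.47. For both genes the H1 ventral neurons were the higher of the pair. UTS2, the urotensin 2 precursor peptide found in spinal motor neurons, was listed at 0 in both RASS libraries and at 89.3 and 45.8 FPKM in ventral neurons (6.02 ± 0.28, adjusted p = 4.05e-05), so no fold is given. RET, a receptor for GDNF family ligands, was at 0.379 and 0.186 FPKM in RASS and at 11.9 and 5.91 in ventral neurons. GFRA1, its co-receptor, did not pass (adjusted p = 0.389): its HUES9 RASS value of 33.2 FPKM was near those of ventral neurons, 37.7 and 38.4.

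The transcription factors that specify motor neurons separated less cleanly. LHX3, a LIM homeodomain factor of early motor neurons, stood at 2.97 and 1.23 FPKM in RASS and at 13.9 and 10.6 in ventral neurons, a rise of 2.14 ± 0.32 (adjusted p = 0.00201). LHX4, its paralog, was at 6.2 and 0.286 FPKM and then at 14.4 and 13.3. MNX1, a motor neuron homeodomain factor, was at 6.63 and 0.068 FPKM in RASS and at 10.2 and 30 in ventral neurons (2.70 ± 0.85, adjusted p = 0.0415). The 2 RASS cultures thus differed from each other in this set, the one labelled H1 being the higher. ISL1, the LIM homeodomain factor that acts with LHX3, had the same order, with 6.85 and 0.181 FPKM in RASS and 3.9 and 9.21 in ventral neurons. Its groups overlapped (adjusted p = 0.232), as did those of ISL2, at 4.77 and 0 FPKM in RASS and 3.34 and 7.85 in ventral neurons (adjusted p = 0.149). Without the H1 RASS library the changes were 2.58 for ISL1 and 2.63 for ISL2, against 1.22 and 1.37 in the main fit.

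Among the remaining members, SLIT2, a secreted guidance cue of motor neurons and floor plate, rose by 2.35 ± 0.40, POU3F1 by 2.15 ± 0.66, ALDH1A2, a retinoic acid synthesizing enzyme of limb-level motor neurons, by 1.87 ± 0.35, and AGRN, which clusters acetylcholine receptors at the muscle synapse, by 0.91 ± 0.27. Not past the threshold were the motor column and pool factors FOXP1 (0.29), MECOM (0.74, or 1.36 without the H1 ventral neurons), ETV1 (-0.23) and ETV4 (-0.26). The same held for the neurofilaments PRPH (0.85) and NEFH (-0.10) and for the nicotinic receptor subunits CHRNA3 (0.26) and CHRNB4 (-0.50). After quantile normalization CHRNB4 was called lower (-0.93, adjusted p = 0.0370). With the replicate block, MNX1 no longer passed (adjusted p = 0.0536). The calls of AGRN and POU3F1 ended without any 1 of the 4 libraries (0.0923 to 0.167), those of MNX1, LHX4 and RET without some 3 of them (0.0513 to 0.244), and LHX3 did not pass with a pseudocount of 0.1 (0.0635). Without HUES9 RASS 8 of the 25 listed genes were called higher.

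**Figure D1:**
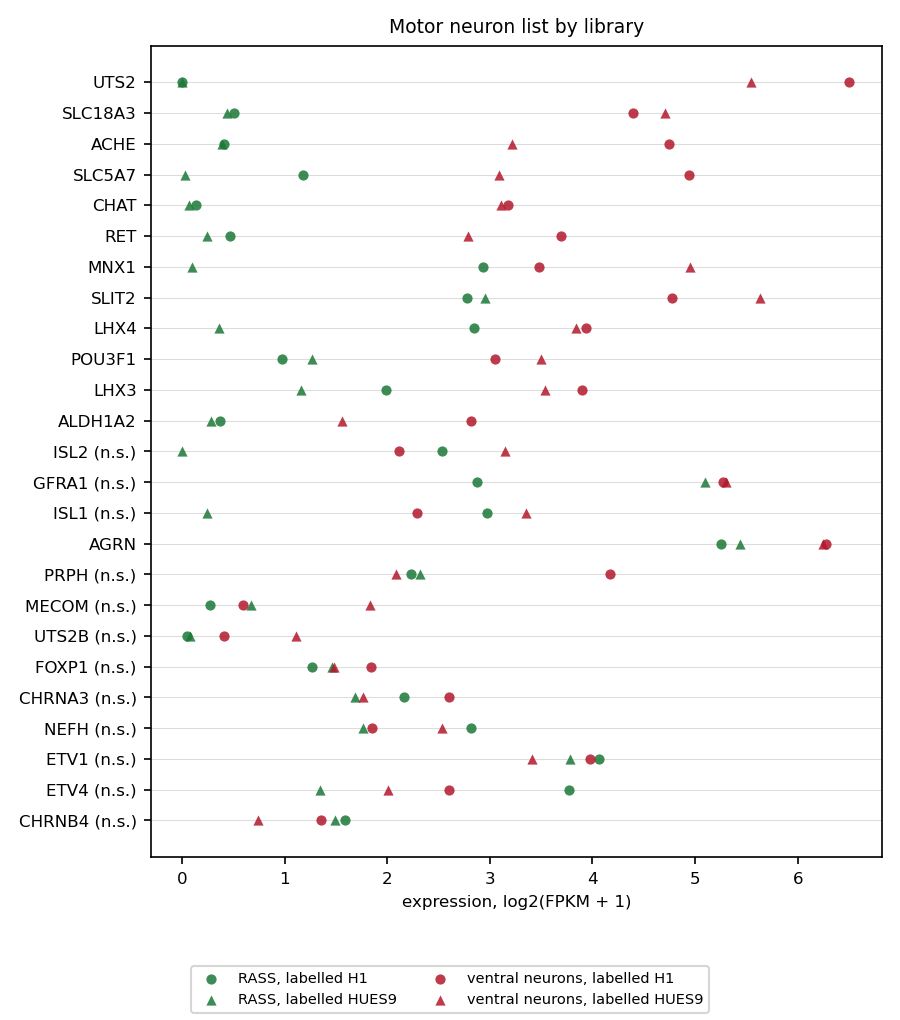
Expression of the 25 genes of the motor neuron list in each library, as log2(FPKM + 1); green marks RASS and red ventral neurons, circles libraries labelled H1 and triangles HUES9, and n.s. marks an adjusted p of 0.05 or more. UTS2, SLC18A3, ACHE, SLC5A7 and CHAT show a wide gap between the groups, while MNX1, LHX4, ISL1 and ISL2 have 1 RASS library, labelled H1, well above the other.

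The promoter of LHX3 is shown because LHX3 is on the motor neuron list and this window holds both parts of an RE1 element. RE1 is the site that REST, a repressor of neuronal genes, binds. The window is 1 of the 3 RefSeq windows of LHX3. The sequence is the 250 bases before a RefSeq start on GRCh38.p14, 5' to 3' on the strand of the gene, with the RE1 parts in capitals.
LHX3 (chr9:136205129-136205378, minus strand): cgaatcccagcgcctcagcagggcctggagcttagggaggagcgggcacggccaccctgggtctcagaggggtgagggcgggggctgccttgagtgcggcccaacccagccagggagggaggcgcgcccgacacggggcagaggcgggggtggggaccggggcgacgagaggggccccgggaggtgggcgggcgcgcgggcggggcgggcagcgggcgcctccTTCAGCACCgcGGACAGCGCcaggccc
The left part, TTCAGCACC, lies 27 to 19 bases before the start, and the right part, GGACAGCGC, 16 to 8 bases before it. Searched on both strands, 0.288% of 35116 RefSeq windows held the left part and 0.427% the right part. Both together, in this order and with 2 bases between, were in 2 windows. REST itself was at 9.66 and 6.76 FPKM in RASS and at 3.92 and 4.55 in ventral neurons, and fell by 0.80 ± 0.20 (adjusted p = 0.0183). REST was chosen after its values were seen, and its call ended without the H1 RASS library (0.161) or the H1 ventral neuron library (0.0893). A match is a stretch of letters, not a measured site.

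The hedgehog pathway list moved down. All 11 listed genes were tested, 7 fell and none rose, against 12.4% of all genes called lower, with a median change of -2.14. The groups of all 11 genes did not overlap, as for 70.7% of all tested genes. PTCH1, the receptor of SHH and itself a target gene, was at 249 and 235 FPKM in RASS and at 17.3 and 59.3 in ventral neurons. It fell by 2.87 ± 0.61 (adjusted p = 0.00834), and its call ended without the H1 RASS library (0.0516) or the H1 ventral neuron library (0.0536). GLI1, the transcription factor that reads out pathway activity, was at 25 and 39.5 FPKM and then at 0.489 and 0.31 (-4.54 ± 0.31, adjusted p = 0.000124). HHIP, a decoy for the ligand and another target, fell from 33.7 ± 14.7 FPKM (SD, n = 2) to 0.373 ± 0.0837 (-4.59 ± 0.33). Without H1 RASS or the H1 ventral neurons 4 of the 11 genes were called lower.

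The signal transducer SMO fell by 1.5 ± 0.32, from 37.0 and 37.6 FPKM to 10.1 and 15.6. GLI2 fell by 2.45 and the co-receptor GAS1 by 2.30. Below the threshold were the co-receptor BOC (-2.14, adjusted p = 0.0621), GLI3 (-1.71, adjusted p = 0.0560), the inhibitor SUFU (-0.20) and the co-receptor CDON (0.42). SHH, the ligand, went the other way: it was listed at 0 in both RASS libraries and at 1.47 and 9.53 FPKM in ventral neurons (2.35 ± 0.52, adjusted p = 0.00968). FOXA2, a floor plate factor, stayed at or under 0.392 FPKM in all 4 libraries. The call of SHH ended without the H1 RASS library (0.0547), that of SMO without H1 RASS (0.0530) or H1 ventral neurons (0.0622), that of GLI2 without any 1 library but H1 ventral neurons (0.0846 to 0.138), and that of GAS1 without any 1 but H1 RASS (0.0543 to 0.0936). BOC and GLI3 passed with the RASS line labels exchanged in the replicate block (0.0485 and 0.0407), where 9 of the 11 genes were called lower, and with only the compared groups' libraries or quantile normalization.

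The promoter of PTCH1 is shown because GLI factors act on this gene and the window holds the core of their binding site, 9 letters searched as GACCACCCA on both strands. It is 1 of the 5 RefSeq windows of PTCH1, given as above with the match in capitals.
PTCH1 (chr9:95509267-95509516, minus strand): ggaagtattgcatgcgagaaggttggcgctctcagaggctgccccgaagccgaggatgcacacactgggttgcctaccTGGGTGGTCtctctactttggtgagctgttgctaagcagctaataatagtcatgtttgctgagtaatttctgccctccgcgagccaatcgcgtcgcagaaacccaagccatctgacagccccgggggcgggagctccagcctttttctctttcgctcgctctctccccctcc
The match, read here as its reverse complement, lies 172 to 164 bases before the start. In all windows the share was 0.199%, and among the 8 list members with windows only PTCH1 held it.

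Of 14 progenitor domain genes of the ventral cord, 10 were tested, of which OLIG2 fell, SHH rose and 8 did not pass, with a median of -1.20. Over all genes 12.4% were called lower and 16% higher. The summed level of the list was 287 to 461 FPKM in RASS and 41.6 to 174 in ventral neurons. OLIG2, the factor of the motor neuron progenitor domain, was at 182 and 51.2 FPKM in RASS and at 0.909 and 4.79 in ventral neurons (-4.88 ± 0.73, adjusted p = 0.00204). NKX6-1, which spans the ventral domains, was at 159 and 69.3 FPKM in RASS and at 18.7 and 69.0 in ventral neurons (adjusted p = 0.283). NKX2-2, of the most ventral neuronal domain, was at 24.6 and 12.4 FPKM and then at 3.03 and 73.7. For NKX6-1 the HUES9 ventral neurons lay just below the lower RASS library, and for NKX2-2 above both RASS libraries; the H1 ventral neurons lay below both for either gene. NKX2-2 was called higher without the H1 ventral neurons (2.01, adjusted p = 0.00791) and lower without the HUES9 ones (-2.20, adjusted p = 0.00465). DBX1, of an interneuron progenitor domain, was at 0.388 FPKM in H1 RASS and 60.5 in HUES9 RASS, and at 0.0235 and 0 in ventral neurons. PAX6 followed that order, with 13 and 69 FPKM in RASS and 6.17 and 1.46 in ventral neurons.

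Dorsal progenitor genes were near absent from both groups. Of 14 dorsal progenitor genes, 3 reached the 1 FPKM needed for a test, and PAX3, PAX7, ZIC1 and MSX2 stayed under 1 FPKM in all 4 libraries. OLIG3, which marks dorsal progenitors and is also found for a time beside the floor plate, was the exception: it was at 0.0129 and 0 FPKM in RASS and at 3.06 and 55.9 in ventral neurons. Its rise (3.92 ± 1.13, adjusted p = 0.0304) was larger in HUES9 than in H1, and its call ended without H1 RASS, HUES9 RASS or HUES9 ventral neurons (0.108 to 0.156). Of 14 dorsal interneuron genes 7 were tested, and PAX8 fell by 1.72 ± 0.57 from 5.3 and 1.61 FPKM to 0.498 and 0.0074 (adjusted p = 0.0482). POU4F1, a factor of dorsal interneurons and sensory neurons, did not pass (-1.31, adjusted p = 0.276). The call of PAX8 ended with the replicate block (0.0600) and without H1 RASS (0.293), H1 ventral neurons (0.0923) or HUES9 ventral neurons (0.187).

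Single ventral interneuron genes changed in either direction. Of 15 listed genes, 12 were tested, 3 rose and 2 fell, shares not far from the 16% and 12.4% of all genes. SOX14, of V2 interneurons, was at 0.856 and 0.236 FPKM in RASS and at 27.1 and 2.47 in ventral neurons. GATA3, of V2b interneurons, rose by 1.90 ± 0.33, to 3.7 and 3.68 FPKM, and CALB1, a calcium-binding protein of Renshaw and other neurons, by 1.27. EVX1, the V0 factor, and LHX5 fell by 1.62 and 1.96. With the replicate block LHX5 did not pass (0.0557), nor CALB1 after quantile normalization (0.0576), and without single libraries the calls of EVX1, LHX5 and SOX14 ended (0.0662 to 0.282). Without HUES9 RASS or HUES9 ventral neurons 0 of these genes were called lower.

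Transmitter genes other than the cholinergic ones rose in part. SLC17A6, the vesicular glutamate transporter of spinal neurons, was at 1.8 and 1.7 FPKM in RASS and at 25.7 and 11.9 in ventral neurons (2.76 ± 0.46). GAD1, GAD2 and SLC32A1, which make or load GABA, did not pass (-0.10, 0.09 and 0.14), with adjusted p of 0.881 to 0.934. SST, the somatostatin precursor, was at 1.4 and 4.95 FPKM in RASS and at 97.5 and 329 in ventral neurons (5.58 ± 0.95). DBH, which makes noradrenaline, was among the largest falls, from 44.5 and 39.0 FPKM to 0.0639 and 0.0547. TH, an earlier enzyme of that synthesis, was at 0.0148 and 0.0155 FPKM in RASS. Its change was upward, at 1.98, and did not pass (adjusted p = 0.148). Without the HUES9 ventral neurons that change was 3.48.

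Neuronal structure and excitability genes rose in most members tested, against 16% of all genes called higher. Pan-neuronal genes gave 15 of 24 higher and none lower, with a median of 1.63. GAP43, a growth cone protein, was at 11 and 10.7 FPKM in RASS and at 192 and 180 in ventral neurons (3.98 ± 0.39). MAPT, the axonal microtubule protein tau, rose by 3.89 ± 0.45. TUBB3, a neuronal tubulin, was already at 369 and 515 FPKM in RASS and at 590 and 503 in ventral neurons (adjusted p = 0.521). STMN2, of the growth cone, and DCX, of young neurons, did not pass either (1.86 and 2.25, adjusted p = 0.230 and 0.0748). DCX was at 36.2 and 39.6 FPKM in RASS and at 118 and 283 in ventral neurons. With only the compared groups' libraries STMN2 and DCX were called higher (0.0047 and 0.0238), and DCX also after quantile normalization (0.0404). Of the pan-neuronal list, 18 genes were called higher and 2 lower under the first of these settings, and 17 and 1 under the second. NEFL, the light neurofilament, was at 52.4 and 49.0 FPKM and then at 476 and 715, a rise of 3.50 ± 0.22. Without H1 RASS 9 pan-neuronal genes were called higher.

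Synaptic vesicle genes gave 22 of 28 higher, ion channel genes 22 of 30 tested (35 listed) and transmitter receptor genes 20 of 28 tested (33 listed), with medians of 1.90, 1.62 and 1.39. Of the vesicle genes, RAB3A, a GTPase of vesicle fusion, was at 7.95 and 12.4 FPKM in RASS and at 123 and 65.3 in ventral neurons. SV2C rose by 3.37 and SYN1, the first listed, by 2.90. SCN3B, a sodium channel auxiliary subunit, was at 2.83 and 3.31 FPKM and then at 43.8 and 35.8. Of the receptors, GRIA2, the AMPA subunit that limits calcium entry, was at 1.3 and 2.2 FPKM and then at 50.5 and 30.9 (3.90 ± 0.64), and the NMDA subunit GRIN2D and the GABA receptor subunit GABRA3 rose by 3.59 and 3.29. CHRNA5, a nicotinic subunit, was the 1 receptor gene that fell (-1.47 ± 0.34). Without the H1 ventral neurons 14 of the vesicle genes were called higher, and without H1 RASS 14 of the vesicle genes and 17 of the channel genes were called higher, and the call of CHRNA5 ended (0.102), as it did without the H1 ventral neurons (0.0800).

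In the axon guidance list 11 of 29 tested genes rose and 1 fell, beside 16% and 12.4% of all genes, with a median of 1.41. SEMA3C, a secreted semaphorin, was at 5.28 and 0.906 FPKM in RASS and at 40.4 and 61.3 in ventral neurons (3.88 ± 0.68). NRP2, a semaphorin co-receptor, was at 1.82 and 1.07 FPKM and then at 29.8 and 22.5 (3.48 ± 0.30), and SLIT1 rose by 3.60 ± 0.86. ROBO1, a receptor of SLIT proteins, did not pass (0.51, adjusted p = 0.302). EFNB1, an ephrin, fell by 1.12 ± 0.35. Its call ended without any 1 library (0.0563 to 0.187) and that of SLIT1 without H1 RASS (0.102) or HUES9 ventral neurons (0.0768). Without H1 RASS 7 guidance genes were called higher.

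**Figure D2:**
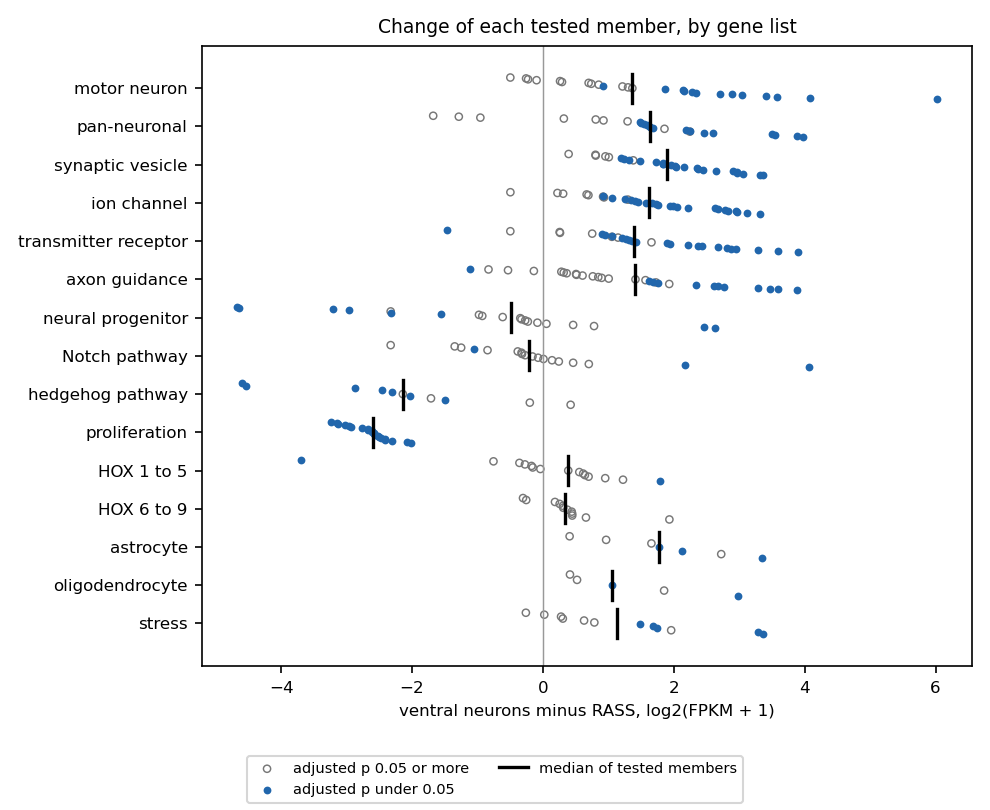
Change from RASS to ventral neurons of each tested gene, as a difference of mean log2(FPKM + 1), in 15 of the gene lists; filled points have an adjusted p under 0.05, open points do not, and the black bar is the median of the tested members. The neuronal lists have medians of 1.37 to 1.90, the hedgehog list -2.14 and the proliferation list -2.59, where every point is filled.

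All 22 genes of the proliferation list fell, beside 12.4% of all genes called lower, with a median of -2.59. MKI67, the Ki-67 antigen of cycling cells, was at 96.7 and 104 FPKM in RASS and at 9.75 and 15.3 in ventral neurons (-2.94 ± 0.62, adjusted p = 0.00836). RRM2, which supplies deoxynucleotides, fell 10.6-fold, from 70.3 ± 2.09 FPKM (SD, n = 2) to 6.61 ± 0.929. The replication helicase subunits MCM5 and MCM2 fell by 3.15 ± 0.41 and 3.14 ± 0.43. The smallest fall was that of CDK1, the mitotic kinase, at 32.1 and 32.2 FPKM in RASS and 7.74 and 6.66 in ventral neurons (-2.02 ± 0.40). Summed over the list, the level was 1700 to 1813 FPKM in RASS and 247 to 269 in ventral neurons. Between 20 and 22 of the genes were called lower when 1 library was left out, and MKI67 did not pass without the H1 ventral neurons (0.0552).

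Regulators of the cycle went in both directions. Of 14 listed cyclins, kinases and inhibitors, 12 were tested, 3 rose and 2 fell, beside 16% and 12.4% of all genes, with a median of 0.01. E2F1, FOXM1 and MYBL2, transcription factors of cell cycle genes chosen after their values were seen, fell by 2.67, 2.73 and 2.80. CCND1, the G1 cyclin, was at 137 and 87.9 FPKM in RASS and at 11.6 and 3.9 in ventral neurons (-3.82 ± 0.60), and CDK4, its kinase, fell by 1.54. CDKN2D, a CDK4 inhibitor, was at 6.65 and 7.37 FPKM and then at 48.3 and 29.8 (2.29 ± 0.34). CDKN1A, the p21 inhibitor, was at 79.7 FPKM in H1 and 3.7 in HUES9 ventral neurons, against 2.32 and 3.64 in RASS, and did not pass, except without the HUES9 ventral neurons (0.00589). CDK5R1 and CDK5R2, activators of the neuronal kinase CDK5, rose by 2.04 and 3.35.

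**Figure D3:**
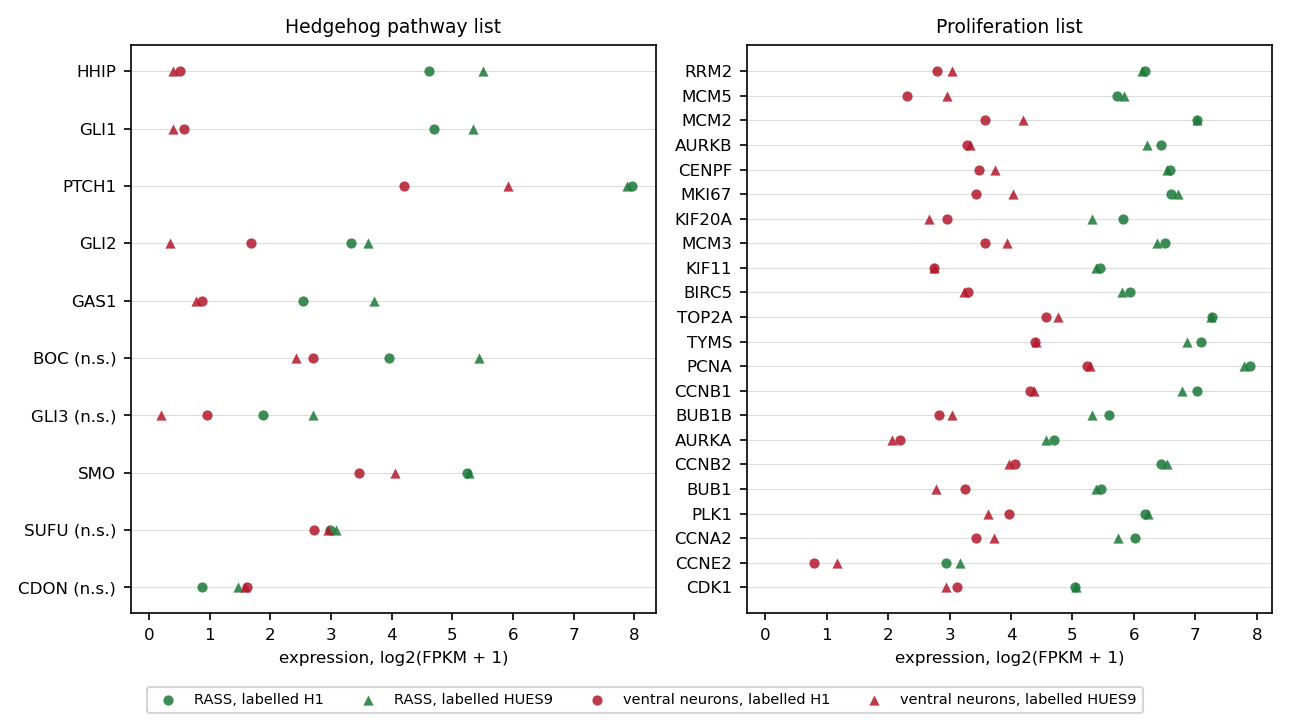
Expression in each library, as log2(FPKM + 1), of 10 of the hedgehog pathway genes (left) and the 22 proliferation genes (right), ordered by their change; colours and symbols are green for RASS, red for ventral neurons, circles for H1 and triangles for HUES9, and n.s. marks an adjusted p of 0.05 or more. All 22 proliferation genes have both ventral neuron libraries below both RASS libraries, and HHIP and GLI1 show the widest gaps on the left.

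The promoters of MKI67 and KIF11, a mitotic motor that fell by 2.67 ± 0.36, are shown because cell cycle genes are known to carry the CHR element beside CCAAT boxes in this window. CHR was searched as TTTGAA or TTTAAA and the CCAAT box as its 5 letters, on both strands, and matches are in capitals. KIF11 was chosen with its values known. Its window, like the others printed, shares no stretch of 20 bases with a GENCODE transcript of the gene.
MKI67 (chr10:128126424-128126673, minus strand): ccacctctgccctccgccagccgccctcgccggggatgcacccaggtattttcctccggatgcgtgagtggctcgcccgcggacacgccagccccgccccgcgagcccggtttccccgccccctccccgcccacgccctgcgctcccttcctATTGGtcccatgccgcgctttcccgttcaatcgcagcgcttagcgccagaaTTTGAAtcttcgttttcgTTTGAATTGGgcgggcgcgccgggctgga
KIF11 (chr10:92592880-92593129, plus strand): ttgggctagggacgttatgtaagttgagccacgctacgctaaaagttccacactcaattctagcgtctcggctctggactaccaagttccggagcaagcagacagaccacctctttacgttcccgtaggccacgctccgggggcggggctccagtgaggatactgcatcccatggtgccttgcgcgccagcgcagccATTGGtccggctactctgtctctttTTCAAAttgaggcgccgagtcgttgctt
In MKI67 a CHR match 29 to 24 bases before the start shares 1 base with the reverse CCAAT match 24 to 20 bases before it. In KIF11 the CHR match, on the reverse strand, lies 28 to 23 bases before the start. Of the 18 list genes with windows, 11 held a CHR match and 15 a CCAAT match. By window, that was 54.5% of 22 and 86.4% of 22, beside 21.9% and 32% of all windows. Of 14 patterns searched, those given were chosen after the matches were seen.

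Of 20 neural progenitor genes, 6 fell and 2 rose, beside 12.4% and 16% of all genes, with a median of -0.48. SOX3, a progenitor factor, was at 116 and 187 FPKM in RASS and at 6.07 and 3.97 in ventral neurons (-4.64 ± 0.69). SOX2, its relative, was at 258 and 257 FPKM in RASS and at 154 and 183 in ventral neurons (-0.61 ± 0.21, adjusted p = 0.0516). It was called lower with only the compared groups' libraries (0.0448) and with the filter on both libraries of a group (0.0495). The early growth regulators LIN28A and HMGA2 fell by 4.67 and 3.21, and NES, the progenitor filament nestin, by 1.56. SOX9, a factor of late progenitors and glia, rose by 2.63 ± 0.60, from 9.91 and 5.5 FPKM to 45.4 and 57.4. The call of SOX9 ended without HUES9 RASS (0.0762) or HUES9 ventral neurons (0.0567), and that of NES without H1 RASS (0.0747) or H1 ventral neurons (0.0744).

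Factors that drive neurogenesis did not move as a set: of 17 listed, 16 were tested, 2 rose and 1 fell, beside 16% and 12.4% of all genes. NEUROG2, the proneural factor of motor neuron progenitors, was at 69.0 and 80.7 FPKM in RASS and at 2.13 and 2.54 in ventral neurons (-4.51 ± 0.63). NEUROD2 and NEUROD6, of later neurons, rose by 2.53 and 1.5. In the Notch list 2 of 18 rose and 1 fell. HEY1, a target gene, was at 0.628 and 0.132 FPKM in RASS and at 6.59 and 67.5 in ventral neurons (4.07 ± 0.95), and the receptor NOTCH1 did not pass (0.46). Without single libraries the calls of NEUROD2 and HEY1 ended (0.0518 to 0.0995), and that of NEUROD6 without H1 RASS, HUES9 RASS or HUES9 ventral neurons (0.0855 to 0.106) or after quantile normalization (0.122). Without H1 RASS or HUES9 RASS 0 proneural genes and 1 Notch gene were called higher.

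HOX genes mark levels of the head-to-tail axis, and few of them passed the threshold in this fit without a line term. Of 15 genes of groups 1 to 5, 1 rose and 1 fell, beside 16% and 12.4% of all genes. HOXA4 rose by 1.79 ± 0.33 and HOXB1 fell by 3.70 ± 0.32, from 13.9 and 16.8 FPKM to 0.0144 and 0.561. None of 12 genes of groups 6 to 9 passed in limma in either direction, and 0 had an unadjusted p under 0.05. Of the 12 changes 10 were upward. With only the compared groups' libraries 2 of the 12 were called higher, as were 1729 of all 12812 genes. HOXB9 was the highest of them by FPKM, at 161 and 271 in RASS and 186 and 154 in ventral neurons. Of the 12 genes of groups 10 to 13, 3 were tested and none passed, with 0 at an unadjusted p under 0.05. Each of the 3, HOXA10, HOXC10 and HOXD10, was near or at 0 in 1 library of either group, H1 in ventral neurons and HUES9 in RASS.

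Retinoic acid, a signal that patterns the neural tube and specifies motor neurons, had 14 listed pathway genes, of which 10 were tested, 2 rose and 1 fell, near the 16% and 12.4% of all genes. ALDH1A2, which makes it, is given above. CYP26B1, which degrades it, was at 0.0178 and 0.0187 FPKM in RASS and at 1.66 and 12.2 in ventral neurons (2.54 ± 0.61). CRABP2, a carrier that brings it to the nucleus, was at 82.8 and 116 FPKM in RASS and at 29.1 and 4 in ventral neurons (-3.01 ± 0.73). RARB, a receptor and target gene, did not pass (0.71), with the lowest value, 1.84 FPKM, in H1 RASS. The calls of CYP26B1 and CRABP2 ended without H1 RASS (0.0694 and 0.0562) or HUES9 RASS (0.0633 and 0.0813), and that of CRABP2 also without HUES9 ventral neurons (0.0579).

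Some glial genes rose as well. In the astrocyte list 3 of 7 tested genes rose (8 listed), beside 16% of all genes, and the summed level of the list was 42.1 to 46.9 FPKM in RASS and 120 to 172 in ventral neurons. S100B, a calcium-binding protein of astrocytes, was at 0 and 0.0233 FPKM in RASS and at 7.72 and 11.3 in ventral neurons. GFAP, the astrocyte filament, was at 13.5 FPKM in H1 and 2.19 in HUES9 ventral neurons and did not pass (adjusted p = 0.0587). It was called higher with the replicate block (0.0392), with the RASS line labels exchanged in that block (0.0350) and with a pseudocount of 0.1 (0.0363). AQP4, the astrocyte water channel, stayed at or under 0.205 FPKM in all 4. MLC1, HEPACAM, BCAN and HOPX, genes of astrocytes or radial glia of which all but BCAN were chosen after their values were seen, rose by 4.08, 1.80, 5.42 and 3.97. BCAN, the matrix protein brevican, was at 0.16 and 0.243 FPKM in RASS and at 18.3 and 135 in ventral neurons.

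Of 8 oligodendrocyte genes, 5 were tested and 2 rose, beside 16% of all genes. GPR17, of committed oligodendrocyte precursors, was at 1.55 FPKM in H1 and 27.4 in HUES9 ventral neurons, against 0.0524 and 0.101 in RASS. SOX10, the lineage factor, was listed at 0 in RASS and at 1.23 and 4.86 FPKM in ventral neurons (adjusted p = 0.120). With a pseudocount of 0.1 it was called higher (0.0317). The summed level of the list was 20.9 to 64.7 FPKM in RASS and 34.1 to 115 in ventral neurons. The calls of S100B, SLC1A3 and GPR17 ended without single libraries (0.0565 to 0.214). Without H1 RASS 1 astrocyte gene was called higher, and without H1 RASS, HUES9 RASS or HUES9 ventral neurons 0 oligodendrocyte genes were. The part of these cells in the changes of the other lists was not tested.

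**Figure D4:**
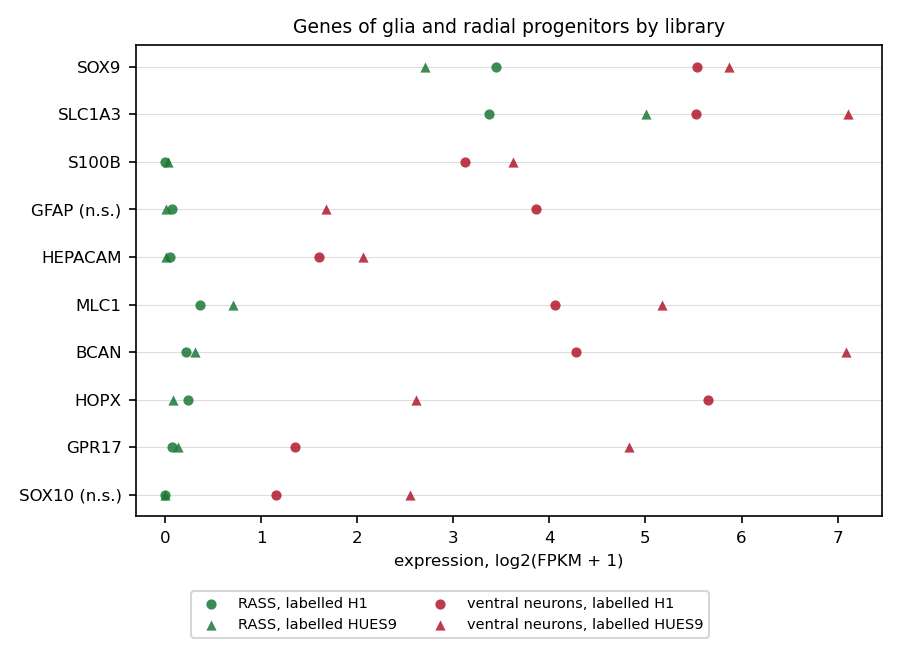
Expression in each library of 10 genes of glia and radial progenitors, as log2(FPKM + 1), 6 of them from the gene lists and 4 named for their change; green is RASS, red ventral neurons, circles H1 and triangles HUES9, and n.s. marks an adjusted p of 0.05 or more. All 10 genes have both ventral neuron libraries above both RASS libraries, and GPR17 and BCAN are higher in HUES9 while GFAP and HOPX are higher in H1. The figure does not hold every glial gene: AQP4, at or under 0.205 FPKM with overlapping groups, is not shown.

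Markers of other cell types were measured as summed levels. Skeletal muscle genes summed to 0.878 to 1.70 FPKM in RASS and 2.71 to 2.99 in ventral neurons, with MYOD1 at or under 0.0649. Fibroblast genes summed to 1.09 to 5.93 and 14.2 to 21.9 FPKM, where PDGFRB rose by 2.22 and COL1A1 by 1.47, the latter losing its call without H1 ventral neurons (0.132), HUES9 ventral neurons (0.0994) or HUES9 RASS (0.219), and neural crest genes to 3.10 to 3.58 and 4.60 to 6.95. Endothelial and blood genes stayed at or under 2.18 FPKM in sum. Epithelial and endoderm genes summed to 4.37 to 7.00 and 12.3 to 21.3 FPKM, with EPCAM up by 1.21 (adjusted p = 0.0332), a call that ended without any 1 of the 4 libraries (0.0827 to 0.162). Forebrain and midbrain genes summed to 4.65 to 25.7 and 1.17 to 5.8 FPKM. Pluripotency genes summed to 84.5 to 131 FPKM in RASS and 17.4 to 21.3 in ventral neurons. Of 8 listed, 3 were tested and all 3 fell, beside 12.4% of all genes called lower. DPPA4 went from 32.9 and 32.3 FPKM to 6.49 and 4.5, while POU5F1 was at or under 0.120 FPKM in all 4. Stress genes rose in 5 of 12, beside 16% of all genes, with sums of 201.5 to 226.7 FPKM in RASS and 289 to 465 in ventral neurons. JUN, an immediate early factor, was at 7.1 and 4.38 FPKM and then at 66.7 and 60.3 (3.29 ± 0.54). DDIT3, of the endoplasmic reticulum stress response, was at 38.9 FPKM in H1 and 14.1 in HUES9 ventral neurons. Without H1 RASS or HUES9 RASS 2 stress genes were called higher, and without H1 ventral neurons 3. The part of stress in the other changes was not tested.

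Over all genes the largest rises with 5 FPKM or more in either group included several secretory proteins. SCG2, secretogranin II of dense-core vesicles, was at 0.396 and 1.19 FPKM in RASS and at 195 and 181 in ventral neurons, a 237-fold rise (6.75 ± 0.40, adjusted p = 8.45e-05). VGF, a neuropeptide precursor, rose by 5.13 ± 0.68 and was higher in H1 (120 FPKM) than in HUES9 (33.3). EEF1A2, a translation elongation factor of neurons and muscle, was at 3.66 and 9.41 FPKM and then at 376 and 269 (5.52 ± 0.48). The rest of the 10 were UTS2, SST, BCAN, FXYD5, IGFBP5, VAT1L and ALCAM, with changes from 4.66 to 6.02. IGFBP5, which binds insulin-like growth factors, was at 44.2 and 1.6 FPKM in RASS and at 247 and 670 in ventral neurons, and its call ended without HUES9 ventral neurons (0.0616).

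The 10 largest falls were led by FGF19, a secreted growth factor, at 52.8 and 56.3 FPKM in RASS and at 0.0161 and 0 in ventral neurons (-5.78 ± 0.58). After it came DBH, OLIG2, LIN28A, SOX3, HHIP, ID1, GLI1, NEUROG2 and SHISA3. ID1, an inhibitor of helix-loop-helix factors, was at 147 and 28.7 FPKM in RASS and at 2.94 and 0.916 in ventral neurons. SHISA3 was at 67.1 and 22.7 FPKM and then at 0.579 and 1.58. Without single libraries the calls of ID1 and SHISA3 ended (0.0567 to 0.132).

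Whether the change to ventral neurons differed from that to dorsal neurons was tested as the difference between ventral minus RASS and dorsal minus RABC, which share no library. Of 13109 genes, 99 differed (0.755%), 53 with the ventral change above the dorsal one and 46 below. UTS2, SLC18A3 and CHAT were among them, with differences of 6.04 ± 0.39, 4.17 ± 0.36 and 3.05 ± 0.33 (adjusted p of 0.000463, 0.00244 and 0.00757). In dorsal neurons these 3 genes stayed at or under 0.313 FPKM. NEFL, chosen after its values were seen, was at 39.2 and 29.5 FPKM in dorsal neurons and at 31.7 and 36.7 in RABC, and its changes differed by 3.50 ± 0.31. GAD2, also chosen after its values were seen, differed by -3.98 (adjusted p = 0.0158). MNX1, LHX3 and SLC5A7 did not pass this test (adjusted p of 0.383, 0.0711 and 0.116), nor did MKI67 (0.390) or PTCH1 (0.252).

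HHIP and GLI1 fell further toward ventral neurons than toward dorsal ones, by 3.84 ± 0.47 and 2.77 ± 0.44. They started lower in RABC, at 1.7 and 1.11 FPKM for HHIP and at 2.75 and 2.74 for GLI1. OLIG3 had opposite changes: in the dorsal series it went from 180 and 23.3 FPKM in RABC to 0.132 and 0.0131 in neurons (difference 9.87 ± 1.61). Other genes had the reverse pattern. PAX8, a factor of inhibitory interneurons, was at 61.7 and 42.1 FPKM in dorsal neurons and at 0.498 and 0.0074 in ventral neurons (difference -6.10 ± 0.80), and SLC6A5, the glycine transporter, differed by -5.19 ± 0.95. Of the 24 named genes called in this test, 18 lost the call with a pseudocount of 0.1, CHAT (0.109) and SLC18A3 (0.102) among them, and 7 with the replicate block, CCND1, DNMT3B, FGF19, HEPACAM, LHX5, OLIG3 and SLC6A5 (0.0556 to 0.0712). ISM1 and DNMT3B lost it without any 1 of the 8 libraries (0.0530 to 0.220), and FGF19, CCND1, LHX5, SLC6A5, GLI1, HEPACAM, OLIG3 and ALCAM without 4 to 7 of them (0.0507 to 0.211). DBH, GASK1B, PDGFRB, SCG2 and GAD2 lost it without 2 or 3 (0.0525 to 0.0868). UTS2, MAB21L1, NRP2 and NEFL kept it under every alternative run.

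**Figure D5:**
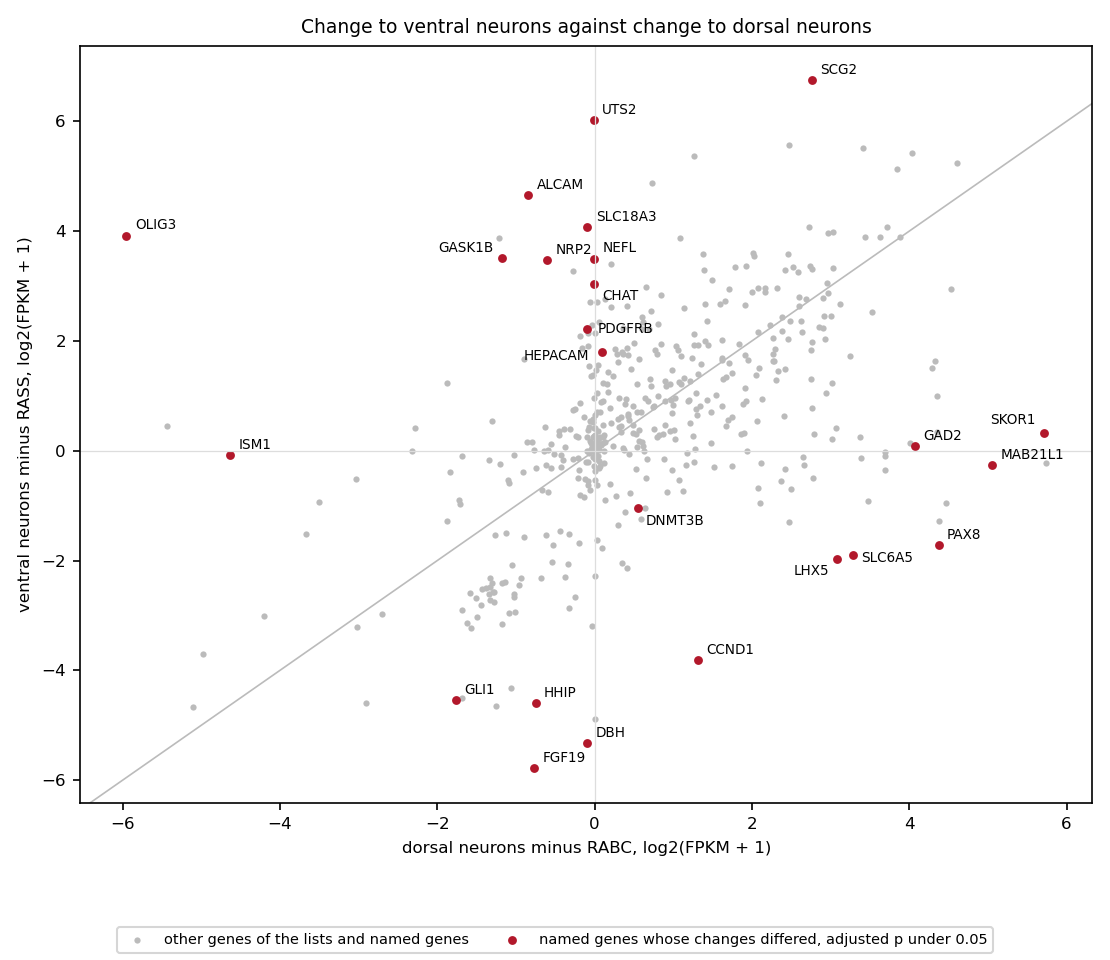
Change from RASS to ventral neurons (vertical) against change from RABC to dorsal neurons (horizontal), both as differences of mean log2(FPKM + 1), for genes of the lists and named genes; the diagonal marks equal changes and red points are the 24 named genes whose changes differed. UTS2, SLC18A3 and CHAT lie above 0 on the vertical axis and near 0 on the horizontal one, and MAB21L1 and SKOR1 the other way round.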

How the data were processed

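Messenger RNA was sequenced from 15 cultures, and 4 of these libraries carry the comparison. The authors deposited 1 table of FPKM for 17999 gene symbols; per the submitters' processing notes it was made with Trimmomatic, HISAT2, HTSeq and Cufflinks on build hg18, while versions, settings and gene models are not given in the sources used here. Libraries were TruSeq Stranded mRNA, per the labels' protocols. No gene coordinates of hg18 are given. The table's column H1 could be tied to no single sample, so that 1 column was left out. FPKM carry no counts. Relative depth was read from the ratio that genes under 0.1 FPKM share between libraries (91 to 130 genes at the shared step), and no counting interval was computed.

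A gene was tested if any of the 4 libraries had it at 1 FPKM or more. limma 3.58.1 in R 4.3.3 fitted log2(FPKM + 1) with 1 mean per group over all 15 libraries (9 groups, 6 of them with 2 libraries), a variance trend on level, 6 residual and 3.27 prior degrees of freedom, and no line term. limma's moderated test was used two-sided, with p adjusted over every gene tested by Benjamini and Hochberg, with calls at an adjusted p under 0.05. The fit was checked on simulated data. SD and SE are over 2 libraries and from the fit, in that order.

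Pairing by line was checked with the HUES9 minus H1 differences, as the report gives them. The RASS labels went against the others, so the replicate block was run as an alternative, with the RASS labels as given and exchanged. Alternatives were another pseudocount (0.1), no filter, a filter on both libraries of a group, equal totals, quantile normalization, no trend, only the compared groups' libraries, and each library left out.

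The members and the 31 gene lists (488 genes) were chosen with earlier results of these data known. Named genes follow a rule: motor neuron genes with a group mean of at least 1 FPKM, and in each other list the first gene and up to 3 called genes per direction with the largest change and at least 5 FPKM in a group. Over all genes it takes the 10 largest called changes per direction, and 5 per direction for the difference from the dorsal change. All other genes named were picked with their values known. Some genes of the lists are counted but not reported by name here. Promoter sequences are from RefSeq (GRCh38.p14, 35116 windows of 27305 symbols); windows that share 20 bases with a GENCODE transcript of the gene were not printed.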

Additional observations from a re-analysis of the deposited data

Results flagged for a closer look

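For 24 named genes the change from RASS to ventral neurons differed from the change from RABC to dorsal neurons (limma, adjusted p under 0.05 for the difference itself). Differences are in log2(FPKM + 1), ventral change minus dorsal change. The ventral change was above the dorsal one for UTS2 (6.04), SLC18A3 (4.17) and CHAT (3.05) of the motor neuron list. It was also above it for OLIG3 (9.87), the adhesion molecule ALCAM (5.50), GASK1B (4.69), ISM1 (4.55), NRP2 (4.08), SCG2 (3.99), NEFL (3.50), PDGFRB (2.31) and HEPACAM (1.71). For ISM1 the dorsal series made the difference: it was at 35.1 and 18.4 FPKM in RABC and at or under 0.205 in RASS and ventral neurons. Its call ended without any 1 of the 8 libraries, without a filter and with a pseudocount of 0.1, which is 10 of 17 alternatives.

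The ventral change was below the dorsal one for the hedgehog targets HHIP (-3.84) and GLI1 (-2.77), for CCND1 (-5.13), DNMT3B (-1.59), FGF19 (-5.01) and DBH (-5.24). The same held for the interneuron genes PAX8 (-6.10), LHX5 (-5.05), SLC6A5 (-5.19) and GAD2 (-3.98) and for SKOR1 (-5.38) and MAB21L1 (-5.31). CCND1 fell toward ventral neurons, while it was at 70.4 and 231.5 FPKM in dorsal neurons against 36.4 and 71.2 in RABC, a dorsal change that did not pass by itself (adjusted p = 0.143). Of the 17 alternatives, 11 ended the call of DNMT3B, and 10 each those of FGF19, CCND1, LHX5 and SLC6A5.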

How the results depend on the processing

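The count of 3648 genes stayed within 1.5 times under each alternative that kept all 4 libraries. With the replicate block it was 3465, of which 3370 were among the 3648, and with the RASS line labels exchanged in that block 4102. Leaving out 1 library gave 1563 to 2978: 1563 without H1 RASS, 1930 without HUES9 RASS, 2360 without H1 ventral neurons and 2978 without HUES9 ventral neurons. A lone library is then assumed to vary like the other groups. The share of calls that were higher was 56.3%, and 45.6% after quantile normalization.

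The 99 genes whose ventral and dorsal changes differed became 58 with the replicate block, 53 with only the compared groups' libraries, 21 with a pseudocount of 0.1 and 172 without a filter, and 27 to 258 when 1 library was left out (27 without H1 RABC, 258 without H1 dorsal neurons). Scaling to equal totals moved the median difference of all genes from -0.00461 to -0.118. The causes of these shifts were not tested.

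Of 111 genes called between ventral neurons and RASS that the naming rule covers or the text names besides, 3 lost the call with the replicate block (MNX1, LHX5 and PAX8, the last at an adjusted p of 0.0600), 11 with a pseudocount of 0.1, 19 without a filter, 18 with only the compared groups' libraries, and 20 to 30 when 1 library was left out. The block changed no other call to a loss. GFAP passed with it (0.0392). None of these 111 changed sign. NKX2-2, not called with all 4 libraries, was at 2.01 without the H1 ventral neurons and at -2.20 without the HUES9 ones.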
